A study of Bos taurus with 17 samples.

Results

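The genes described here make, inactivate or sense prostaglandins in the cumulus of the cow, the layers of somatic cells around the oocyte. Of 10 genes chosen for these roles, 9 had a probe on the array: the cyclooxygenases PTGS1 and PTGS2, the prostaglandin E synthases PTGES and PTGES3, AKR1B1, the degrading enzyme HPGD, and the receptors PTGER2, PTGER4 and PTGFR. They were held by 10 of the 21475 probes of the array, as PTGFR had 2 probes, and no probe was found for PTGES2. A probe was taken where the array's gene name was the symbol of the gene. PTGES3 and HPGD carry older names on the array (CPGES and PGDH) and were matched by their RefSeq accession.

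Cumulus cells were collected at 3 stages of oocyte competence. NC1 cells came from prophase I oocytes of 6 prepubertal calves aged 3 to 6 months, aspirated after slaughter from follicles of 3 to 6 mm, and had a compact cumulus. C1 cells came in the same way from prophase I oocytes of 6 adult cows, with a compact cumulus. C2 cells had an expanded cumulus and came from metaphase II oocytes of 5 cycling, non-lactating Holstein cows aged 3 to 5 years. These cows received progestagen implants, 7 doses of an FSH/LH preparation amounting to 400 μg and prostaglandin F2α, and their follicles of more than 8 mm were collected by ovum pick up 60 h after the latter. Each array held the cells of a different animal. Age thus cannot be told apart from the step between NC1 and C1, and hormone treatment, follicle size and way of collection cannot be told apart from the step between C1 and C2.

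Prostaglandins are made from arachidonic acid, which phospholipases A2 release from membranes. Cyclooxygenases turn it into prostaglandin H2, and terminal synthases turn prostaglandin H2 into prostaglandin E2, F2α, D2, prostacyclin or thromboxane. PTGS1 is usually the constant form and PTGS2 the inducible form of cyclooxygenase. In the follicle, the gonadotropin surge is known to induce PTGS2, and prostaglandin E2 acts through PTGER2 and PTGER4 in cumulus expansion and ovulation. PTGFR, the receptor of prostaglandin F2α, is best known from luteal cells, where it carries the signal for luteolysis.

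Each value below is the log2 signal of a probe minus the median of its array, so a value of 0 is the median probe. Such levels were not compared between probes, since probes differ in how strongly they bind. A difference was called where its adjusted p, computed over all valid probes, was under 0.01. A probe was valid where it was present on 80% or more of the arrays at every stage, which left 13865 probes and 5 of the 9 genes: PTGS1, PTGS2, PTGES, PTGES3 and AKR1B1. The probes of HPGD, PTGER2, PTGER4 and PTGFR were dimmer, and their tests come from the same fit without a filter, over 21475 probes. The share of probes well above background lay between 66.2% and 82.8% of an array, and no spot was saturated. Of 13 markers of cumulus and granulosa cells, at least 11 were well above background on every C2 array. Within a stage, the SD of the log2 difference between a pair of arrays had a median of 0.59 at NC1 and of 0.56 at C1, but of 1.24 at C2. C2 replicates 1 and 5 lay close to each other (0.44), as did C2 replicates 3 and 4 (0.51), while every other pair of C2 arrays was at least 1.05 apart, so results that rest on replicates 1 and 5 are given with and without them.

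Of the 5 valid genes, 3 differed among the stages by the moderated F, beside 28.6% of all valid probes. Between C1 and C2, PTGS2 rose while PTGS1 and AKR1B1 fell, against a background of 15.3% of valid probes called higher and 12.8% called lower at C2. Between NC1 and C2, PTGS2 and PTGES rose while PTGS1 and AKR1B1 fell, against 15.5% called higher and 12.6% called lower. Between NC1 and C1, none of the 5 genes passed limma's test (1 of them, PTGES, had an unadjusted p under 0.05, and none passed in the test without moderation), and 0.0577% of all valid probes passed. The median difference of the 5 genes was -0.54 between C2 and C1 and -0.31 between C2 and NC1, beside medians of 0.02 and 0.11 over all valid probes. Cell type markers moved between C1 and C2 as well. Of 10 valid markers of cumulus and granulosa cells, 6 were lower at C2, among them HSD17B1 (87.8-fold) and FSHR (11.7-fold). The other 4 (INHA, INHBA, NR5A2 and GATM) were not called, and the median difference over the 10 was -1.82. KITLG of the same list was not valid and went the other way. Its measured signal was higher at C2 by 5.02 (adjusted p = 4.11e-08 without a filter), with 3 of 6 C1 arrays well above background. Of 11 valid leukocyte markers, 5 were higher at C2 (CD53, LCP1, LAPTM5, CD14 and TYROBP, with a median difference of 1.86 over the 11). The part of these shifts in the member values was not tested.

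PTGS2 gave the largest change of the 5 genes. Its log2 signal ranged from 0.80 to 3.41 at NC1, with a median of 1.47, and from -0.20 to 1.77 at C1, with a median of 0.59. At C2 it was 4.68, 6.70, 5.53, 5.48 and 5.04 in replicates 1 to 5. All C2 arrays were thus higher than any NC1 or C1 array, with replicate 2 at the top. The C2 mean of 5.48 ± 0.76 (SD, n = 5) was 27.0-fold above the C1 mean of 0.73 ± 0.77 (SD, n = 6) (log2 difference 4.75, SE 0.47, adjusted p = 2.97e-07). Within slides this difference was 3.17 to 6.90 on the log2 scale. Against NC1, with a mean of 1.66 ± 0.99 (SD, n = 6), the rise was 14.1-fold (log2 difference 3.82, SE 0.47, adjusted p = 3.9e-06). The exact permutation test, 2-sided, gave p = 0.00433 for each of these comparisons, the smallest value that 5 arrays against 6 allow. PTGS2 was lower at C1 than at NC1 on all 6 slides, by 0.12 to 2.79, but this difference did not pass the test (log2 difference -0.93, SE 0.45, adjusted p = 0.509; exact permutation p = 0.0996).

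PTGS1, the other cyclooxygenase, changed in the opposite direction. Its log2 signal ranged from 0.46 to 1.49 at NC1, with a median of 0.79, and from 0.33 to 0.93 at C1, with a median of 0.77. The C2 values were -0.78, -0.59, -1.72, -1.45 and -1.11 in replicates 1 to 5, without overlap with NC1 or C1. It was 3.52-fold lower at C2 than at C1 (log2 difference -1.81, SE 0.23, adjusted p = 5.57e-06) and 4.18-fold lower than at NC1 (log2 difference -2.06, SE 0.23, adjusted p = 1.38e-06). The exact permutation p was 0.00433 in each comparison, and PTGS1 was lower at C2 on all 5 slides. Over all valid probes, the arrays did not overlap for 21.6% between C2 and C1 and for 20.9% between C2 and NC1.

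The deposited table gives the probes of both cyclooxygenases, which are shown because these paralogs changed in opposite directions and a shared stretch could mix their signals. The probe of PTGES is shown beside them, with the motif AATAAA that it carries in capitals. This is the sequence of a polyadenylation signal, and whether it acts as one in PTGES was not tested.
PTGS2: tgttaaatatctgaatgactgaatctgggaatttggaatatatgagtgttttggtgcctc
PTGS1: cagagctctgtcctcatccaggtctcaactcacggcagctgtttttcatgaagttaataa
PTGES: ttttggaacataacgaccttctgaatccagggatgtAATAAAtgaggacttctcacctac
The longest run of bases that the PTGS1 and PTGS2 probes share is 6 of 60 bases. None of the 15256 probes with a sequence in this table shares a run of 20 bases with any of these 3 probes, nor with those of PTGES3 and AKR1B1. The motif AATAAA was searched on each strand. It was found as written in 14.3% of the probes and in reverse complement in 4.35%, and in neither orientation in the PTGS1 and PTGS2 probes. The GC content was 35.0% for PTGS2, 45.0% for PTGS1 and 40.0% for PTGES, beside a median of 43.3%.

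**Figure D1:**
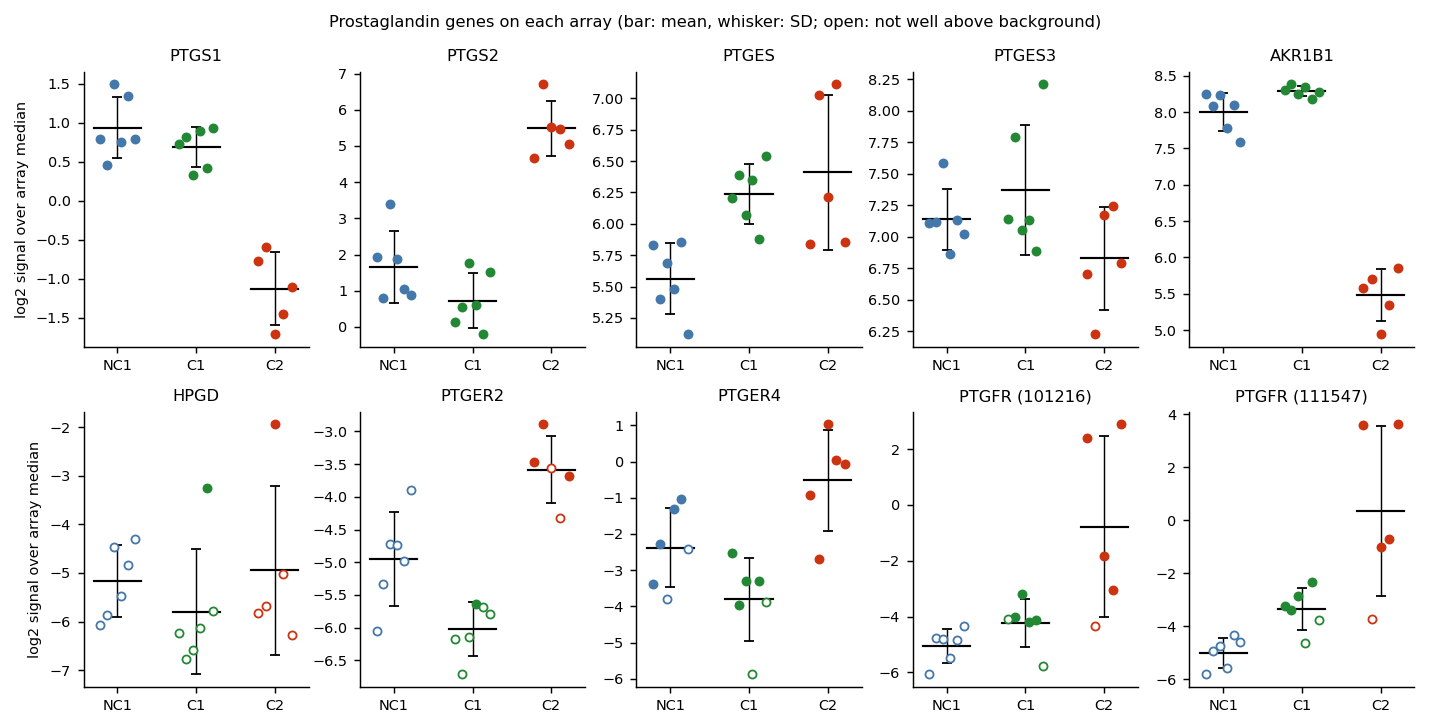
Log2 signal over the array median (vertical axis, a separate scale in each panel) of the 10 probes of the 9 prostaglandin genes on the 6 NC1, 6 C1 and 5 C2 arrays. Each point is an array, open where the probe was not well above background, and bars and whiskers are the mean and SD. The C2 arrays of PTGS2 lie above, and those of PTGS1 and AKR1B1 below, all arrays of the other stages, while the C2 arrays of PTGFR spread from below -3 to above 2.

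The synthases that follow the cyclooxygenases did not share a pattern. PTGES, the inducible synthase of prostaglandin E2, ranged from 5.12 to 5.86 at NC1, with a median of 5.58, and from 5.88 to 6.54 at C1, with a median of 6.28. At C2 it was 5.84, 7.03, 6.21, 7.11 and 5.86 in replicates 1 to 5. Replicates 2 and 4 lay above all other arrays of the study, whereas replicates 1 and 5 lay within the range of NC1. It was 1.80-fold higher at C2 than at NC1 (log2 difference 0.85, SE 0.24, adjusted p = 0.00907; exact permutation p = 0.013), but this call was lost in 21 of 32 alternatives (adjusted p = 0.0205 with the 75th percentile as the scale and 0.0356 with the slide as a block), 12 of them with 1 array left out (NC1 replicates 1, 2, 3, 4 or 6, C1 replicates 1, 2, 3 or 4, or C2 replicates 2, 3 or 4), over which the adjusted p rose to at most 0.0302. Without C2 replicates 1 and 5 the difference was 1.22 (adjusted p = 0.000455). By scan day it was 0.55 on the first day and 1.23 on the second. Between C2 and C1 the difference was 0.17 (SE 0.24, adjusted p = 0.605) and had no stable sign (-0.02 with quantile scaling). The C1 arrays did not overlap with the NC1 arrays, as for 2.1% of all valid probes, and C1 was higher on all 6 slides, by 0.35 to 1.27. That difference of 0.68 (SE 0.23) had an exact permutation p of 0.00216, the smallest that 6 arrays against 6 allow, but an adjusted p of 0.256.

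PTGES3, a co-chaperone of HSP90 that also has prostaglandin E synthase activity, did not pass the test in any comparison. It ranged from 6.87 to 7.59 at NC1, with a median of 7.12, and from 6.89 to 8.21 at C1, with a median of 7.14. The C2 values were 6.70, 6.23, 7.17, 7.25 and 6.79 in replicates 1 to 5, which overlaps with both other stages. The difference between C2 and C1 was -0.54 (SE 0.24, adjusted p = 0.0839; exact permutation p = 0.108), and it passed the threshold where arrays were scaled by the 75th percentile (-0.67, adjusted p = 0.00368) or by quantiles (-0.74, adjusted p = 0.00197).

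AKR1B1 is an aldose reductase that in cattle also makes prostaglandin F2α. Its signal was nearly the same on all C1 arrays, from 8.18 to 8.38 with a median of 8.29, and ranged from 7.59 to 8.25 at NC1, with a median of 8.09. At C2 AKR1B1 was at 5.58, 5.70, 4.94, 5.35 and 5.85 in replicates 1 to 5, all lower than any NC1 or C1 array. The fall between NC1 and C2 was 5.74-fold (log2 difference -2.52, SE 0.18, adjusted p = 5.1e-09), beside 6.99-fold between C1 and C2. Within slides, the difference between C2 and C1 lay between -3.40 and -2.45. By scan day it was -2.55 on the first day and -3.18 on the second. C1 was higher than NC1 on all 6 slides, by 0.03 to 0.79, and this difference did not pass limma's test (0.29, SE 0.17, adjusted p = 0.627; exact permutation p = 0.0108).

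**Figure D2:**
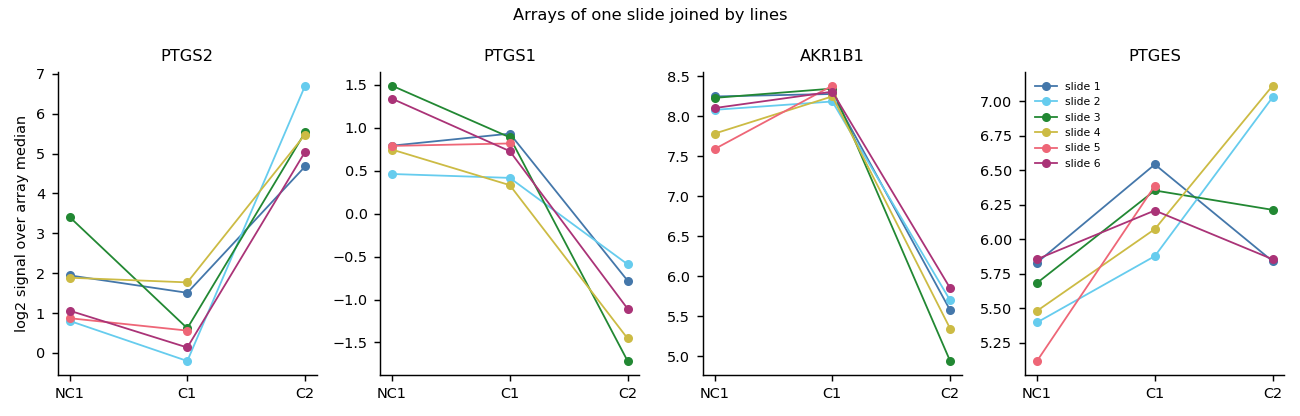
Log2 signal over the array median of PTGS2, PTGS1, AKR1B1 and PTGES at each stage, with the arrays of the same slide joined by a line. The animals of a slide are not paired. On each of the 5 slides with a C2 array, PTGS2 was higher and PTGS1 and AKR1B1 lower at C2 than at both other stages, while the lines of PTGES cross between C1 and C2.

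HPGD, which inactivates prostaglandins E2 and F2α, was at or near background throughout. Its probe was well above background only on C1 replicate 5, at -3.26, and on C2 replicate 3, at -1.94, and the other 15 arrays lay between -6.78 and -4.30. No comparison of HPGD passed the test without a filter (adjusted p = 0.366 between C2 and C1).

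PTGER2, a receptor of prostaglandin E2, was dim at all stages. It was not well above background on any NC1 array (-6.05 to -3.90, median -4.86), and at C1 it was so on 1 of 6 arrays (-6.71 to -5.64, median -5.96). At C2 PTGER2 was at -3.46, -2.89 and -3.69 in replicates 1, 2 and 5, and not well above background at -3.56 and -4.32 in replicates 3 and 4. The C2 arrays lay above all C1 arrays but overlapped with NC1 replicate 6. Arrays of C2 and C1 did not overlap, in either direction, for 21.6% of valid probes, a set that leaves out PTGER2. No such share is given over all 21475 probes. The measured signals differed by 2.44 between C2 and C1 (SE 0.33, adjusted p = 1.53e-05 over 21475 probes, of which 11.2% were called higher at C2; exact permutation p = 0.00433) and by 1.37 between C2 and NC1 (SE 0.33, adjusted p = 0.00363, with 10.7% of all probes called higher). Since most of these arrays were not well above background, neither value is a measured fold change or a bound on one. Undetected probes also read lower at C1. AKR1C4, PTGDR and AKR1C3, well above background on no array, differed by 0.92, 0.43 and 0.16 between C2 and C1. The part of such an offset in the PTGER2 difference was not tested. By scan day the difference between C2 and NC1 was 2.11 on the first day and 0.51 on the second. With the normexp background correction and its offset, which compress dim signals, neither difference passed the test (0.39, adjusted p = 0.252, and 0.00, adjusted p = 0.995). The difference between C2 and NC1 was also lost in 6 other alternatives, among them the slide as a block (1.41, adjusted p = 0.012), the use of all spots, those set aside as outliers included (adjusted p = 0.0501), the 75th percentile as the scale (1.22, adjusted p = 0.0146), without C2 replicate 2 (adjusted p = 0.011) and without C2 replicates 1 and 5 (1.36, adjusted p = 0.0148).

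PTGER4 is, like PTGER2, a receptor of prostaglandin E2 that signals through cyclic AMP. Its probe passed the background on 4 of 6 NC1 arrays, 4 of 6 C1 arrays and all 5 C2 arrays. Its log2 signal ranged from -3.81 to -1.03 at NC1, with a median of -2.35, and from -5.88 to -2.53 at C1, with a median of -3.59. At C2 PTGER4 was at -0.91, -2.68, 1.03, 0.04 and -0.05 in replicates 1 to 5. Replicate 2 was thus within the range of C1 and the others were above it. The measured signals of PTGER4 differed by 3.29 between C2 and C1 (SE 0.66, adjusted p = 0.000781, with 11.2% of all probes called higher, exact permutation p = 0.00866). This call held with normexp (1.33, adjusted p = 0.000567). Not every C1 array was well above background, so this difference is not a measured fold change. Within scan days this difference was 2.02 on the first day and 4.91 on the second. It was lower at C1 than at NC1 on all 6 slides, by 0.48 to 2.07, without passing the test (-1.43, SE 0.63, adjusted p = 0.195). The difference between C2 and NC1 of 1.86 (SE 0.66) missed the threshold as well (adjusted p = 0.0389), and passed it without C2 replicate 2 (2.40, adjusted p = 0.0057).

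PTGFR differed widely among the C2 arrays. Its brighter probe (A_73_111547) gave 3.59 and 3.61 on C2 replicates 1 and 5, -0.99 and -0.71 on replicates 3 and 4, and -3.74, not well above background, on replicate 2. The other probe (A_73_101216) gave 2.40 and 2.88 on replicates 1 and 5, -1.82 and -3.05 on replicates 3 and 4, and -4.32, not well above background, on replicate 2. The probes thus placed replicates 1 and 5 together at the top and replicate 2 at the bottom, and their Pearson correlation over the 17 arrays, which share RNA and hybridisation for both probes, was 0.96. At NC1 neither probe was well above background on any array (-5.81 to -4.33, median -4.84, for the brighter one), and at C1 each was so on 4 of 6 arrays (-4.62 to -2.33, median -3.30, for the brighter one).

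Between C2 and NC1, the measured signals of PTGFR differed by 5.35 (SE 0.97, adjusted p = 0.000354) for the brighter probe and by 4.27 (SE 1.00, adjusted p = 0.003) for the other, with 4 of 5 C2 arrays and none of the NC1 arrays well above background. Without C2 replicates 1 and 5 these differences were 3.18 (adjusted p = 0.000452) and 1.99 (adjusted p = 0.00883) on the log2 scale. With normexp the call held for the brighter probe (2.21, adjusted p = 0.00998) and ended for the other (1.53, adjusted p = 0.0379). The difference between C2 and C1 was 3.71 (SE 0.97, adjusted p = 0.00678) by the brighter probe and 3.45 (SE 1.00, adjusted p = 0.0126) by the other, and 1.54 (adjusted p = 0.0519) and 1.17 (adjusted p = 0.104) without these 2 replicates. With the slide as a block, neither probe passed (adjusted p = 0.0135 and 0.0241). Leaving out C2 replicate 1 or 5 alone also ended the call of the brighter probe (2.90 and 2.89, adjusted p = 0.0204 in each case), as did leaving out any of C1 replicates 1, 2, 3, 4 and 6 (3.46 to 3.81, adjusted p of 0.0108 to 0.0173). The other probe gained the call without C2 replicate 2 (4.33, adjusted p = 0.00117) or 4 (4.01, adjusted p = 0.00633). By scan day, the difference between C2 and C1 was 4.25 and 2.77 for the brighter probe and 4.97 and 1.37 for the other. PTGFR was higher at C1 than at NC1 on all 6 slides by both probes, a difference that did not pass limma's test (1.64, SE 0.93, adjusted p = 0.359 for the brighter probe; exact permutation p = 0.00649) and that turned its sign with normexp (-0.09 and -0.21).

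Other genes of the pathway also separated the C2 arrays. PTGIS, the prostacyclin synthase, was at 7.24 and 6.98 on C2 replicates 1 and 5 and at -1.95, -1.19 and -2.02 on replicates 2, 3 and 4, beside -4.61 to -0.85 at NC1 and -6.13 to -2.09 at C1. PTGER3, a further receptor of prostaglandin E2, was well above background at C2 on the same 2 arrays alone, at 0.46 and -1.28. PLA2G10, a secreted phospholipase A2, was instead highest on replicates 3 and 4, at 2.97 and 1.24, beside -1.02, -4.20 and -3.65 on replicates 1, 2 and 5. PLA2G1B, the pancreatic phospholipase A2, was at 3.73 and 4.63 on replicates 3 and 4, within and above the range of 2.61 to 4.20 of the NC1 and C1 arrays, and below it at -0.50, 1.19 and -1.03 on replicates 1, 2 and 5. PTGIS was called higher at C2 than at C1 without a filter (6.15, SE 1.59, adjusted p = 0.00614, with 2 of 6 C1 arrays well above background) but not without replicates 1 and 5 (2.62, adjusted p = 0.046). Between C2 and NC1, PTGIS did not pass the threshold (4.25, SE 1.59, adjusted p = 0.0513). Without replicates 1 and 5 that difference was 0.72 (adjusted p = 0.617). C2 replicates 1, 2 and 5 were scanned on the first day and replicates 3 and 4 on the second.

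Marker lists were read on the same arrays. The summed signal of 16 leukocyte markers was 66.8 and 88.9 times the array median on C2 replicates 1 and 5, and 19.6, 36.8 and 43.9 on replicates 2, 3 and 4, beside 26.6 to 52.0 at NC1 and 22.3 to 39.5 at C1. ITGB2, which did not pass the test, was the brightest of the leukocyte probes and weighs most in these sums. For 13 markers of cumulus and granulosa cells it was 1486 and 1413 on replicates 1 and 5, and 2952, 4502 and 4618 on the others, beside 4000 to 8972 at NC1 and 4306 to 6064 at C1. Of these markers, at least 11 were well above background on every array. INHA, INHBA and FST were their brightest genes and weigh most in the sums. INHA and INHBA were not called between C2 and C1, and INHBA ranged from 6.94 to 10.8 at C2. For 9 markers of theca and stroma, the summed signal was 351 and 301 on replicates 1 and 5 and 438 to 604 on the others. It was 173 to 307 at NC1 and 198 to 306 at C1. Of the 8 valid genes, LUM and COL1A1 were called higher at C2 than at C1. The other 6 were not called by their brightest valid probes, and the median difference over the 8 was -0.16. For DCN, the 2 valid probes disagreed. The brighter one, counted here, differed by -0.07 between C2 and C1. The dimmer one was called higher at C2 than at C1 (4.08, adjusted p = 1.17e-05). LUM (mean 3.73 at C1 and 7.52 at C2) and INSL3 (7.52 and 6.75) weigh much in these sums. For 10 endothelial markers, the summed signal ranged from 5.63 to 12.7 at C2, 3.26 to 5.22 at NC1 and 2.92 to 4.44 at C1. CDH5 and EMCN were well above background on no array. Of the 7 valid genes, KDR alone was called between C2 and C1, higher at C2 (mean 1.61 beside -1.97). The median difference over the 7 was -0.11. TEK was called lower at C2 than at NC1 (-1.61, adjusted p = 1.85e-05). For 10 oocyte markers, the summed signal ranged from 61.3 to 148 at NC1, 5.43 to 57.6 at C1 and 3.37 to 7.91 at C2, where BMP15, ZP2, DAZL, ZAR1 and MOS were not well above background. Markers of red blood cells (4 genes, sums up to 0.785) and platelets (3 genes, sums up to 5.25) were low at all stages. The part of other cell types in the values of PTGFR, PTGIS or any other gene was not tested, and in bulk samples fewer cells of a type cannot be told apart from less RNA per cell.

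**Figure D3:**
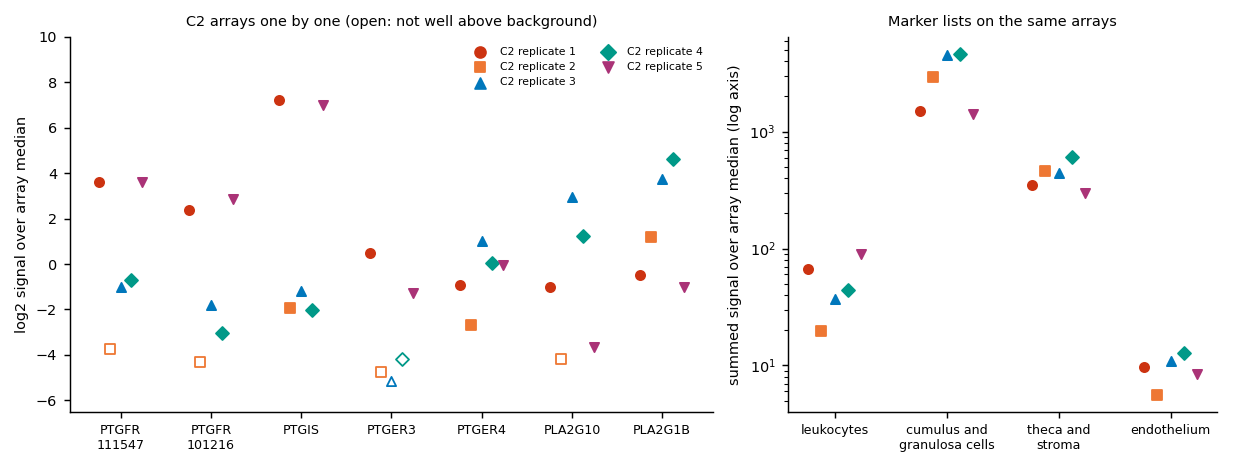
Left, log2 signal over the array median of 7 probes on the 5 C2 arrays, each replicate with its own symbol, open where not well above background. Right, summed signal over the array median of the markers of 4 cell types on the same arrays, on a log axis. Replicates 1 and 5 are highest for PTGFR, PTGIS, PTGER3 and the leukocyte markers and lowest for the cumulus and granulosa markers, while replicates 3 and 4 are highest for PLA2G10 and PLA2G1B.

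The rest of the pathway was read from a list of 34 genes, 31 of them with a probe and 18 with a valid one. Between C1 and C2, 2 of the 18 rose and 7 fell, beside 15.3% and 12.8% of all valid probes. Between NC1 and C2, 3 rose and 5 fell, beside 15.5% and 12.6%. None passed limma's test between NC1 and C1, where 3 of the 18 had an unadjusted p under 0.05. The median difference of the 18 genes between C2 and C1 was 0.14, beside 0.02 over all valid probes, although more of them fell than rose.

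Among the genes listed as phospholipases A2, 9 of 13 measured genes were valid. PLA2G4A, the cytosolic form that frees arachidonic acid, was at -0.18, 2.39, 0.85, 0.43 and -0.74 in C2 replicates 1 to 5, and at -3.20 to -2.11 at C1 and -2.81 to -1.97 at NC1. It was 9.75-fold higher at C2 than at C1 (log2 difference 3.29, SE 0.39, adjusted p = 2.89e-06) and 7.66-fold higher than at NC1 (adjusted p = 1.06e-05). As for PTGS2, replicate 2 was the highest and replicates 1 and 5 the lowest C2 arrays. PLA2G16, a membrane phospholipase, rose 2.93-fold from C1 (adjusted p = 0.000533), and the lysosomal PLA2G15 rose 1.79-fold from NC1 (adjusted p = 0.00376). The calcium-independent PLA2G6 fell 3.81-fold from C1 to C2 (adjusted p = 4.7e-05) and PLA2G7, which degrades platelet-activating factor, fell 3.09-fold (adjusted p = 5.81e-05). PLA2G10 passed without a filter (difference in measured log2 signal between C2 and C1 of 4.44, SE 1.00, adjusted p = 0.00212), with 4 of 5 C2 arrays and 1 of 6 C1 arrays well above background.

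The other synthases that were measured and valid numbered 4, and 3 of them fell between C1 and C2, beside 12.8% of all valid probes. PTGDS, the lipocalin-type synthase of prostaglandin D2, ranged from 7.61 to 8.41 at C1 and was at 6.01, 4.97, 5.08, 5.01 and 5.77 in C2 replicates 1 to 5. It fell 6.26-fold from C1 (log2 difference -2.65, SE 0.25, adjusted p = 2.22e-07) and 3.58-fold from NC1 (adjusted p = 1.52e-05). CBR1, a carbonyl reductase that converts prostaglandin E2 to F2α, fell 1.93-fold from C1 (adjusted p = 0.000805), and FAM213B, a prostamide and prostaglandin F synthase, fell 1.86-fold (adjusted p = 0.000667). A dimmer probe of CBR1 was also called lower at C2 (adjusted p = 8.61e-05 without a filter), and was well above background on 2 of 5 C2 arrays. The probes of AKR1C3 and AKR1C4 were not well above background on any array.

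Of the enzymes that follow HPGD in breakdown, PTGR1 fell 4.09-fold from C1 to C2 (log2 difference -2.03, SE 0.22, adjusted p = 9.98e-07). Its C2 values were 5.02, 4.41, 4.67, 5.42 and 4.87 in replicates 1 to 5, below the C1 range of 6.59 to 7.47. PTGR2 differed by 0.36 (adjusted p = 0.207) between these stages.

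Among the remaining prostanoid receptors, PTGER1 was valid and ranged from 0.16 to 1.94 at NC1, 0.83 to 2.15 at C1 and 0.94 to 2.15 at C2 (difference between C2 and C1 of 0.31, SE 0.33, adjusted p = 0.478). PTGDR, the receptor of prostaglandin D2, was well above background on no array, the thromboxane receptor TBXA2R on 1 C1 array, and the prostacyclin receptor PTGIR on 3 of 6 C1 and 2 of 5 C2 arrays. PTGFRN, a membrane protein that inhibits binding to PTGFR, fell by both of its probes. The brighter one was at 4.12, 3.64, 4.36, 4.20 and 4.52 in C2 replicates 1 to 5, below the C1 range of 6.22 to 7.74, a 6.39-fold fall (adjusted p = 4.92e-07). The other fell 2.36-fold (adjusted p = 4.27e-05). The transporter SLCO2A1 did not pass the test (0.46, SE 0.52, adjusted p = 0.505), and no probe described as ABCC4 was valid.

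Lipoxygenases use the same substrate. Of 7 measured genes of this branch, 3 were valid, and ALOX15 alone was called. ALOX15 was at -2.16, -1.26, -0.99, -0.80 and -2.75 in C2 replicates 1 to 5 and between 0.02 and 1.48 at C1, a 5.16-fold fall (log2 difference -2.37, SE 0.51, adjusted p = 0.00106). A second probe described as ALOX15 was between 0.96 and 2.45 at C1 and not well above background on any C2 array. Its measured signals differed by -7.46 between C2 and C1 (adjusted p = 1.54e-09 without a filter), which is not a measured fold change. Both probes thus read lower at C2, by measured amounts that differ widely. LTA4H and ALOX12B did not pass the test.

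**Figure D4:**
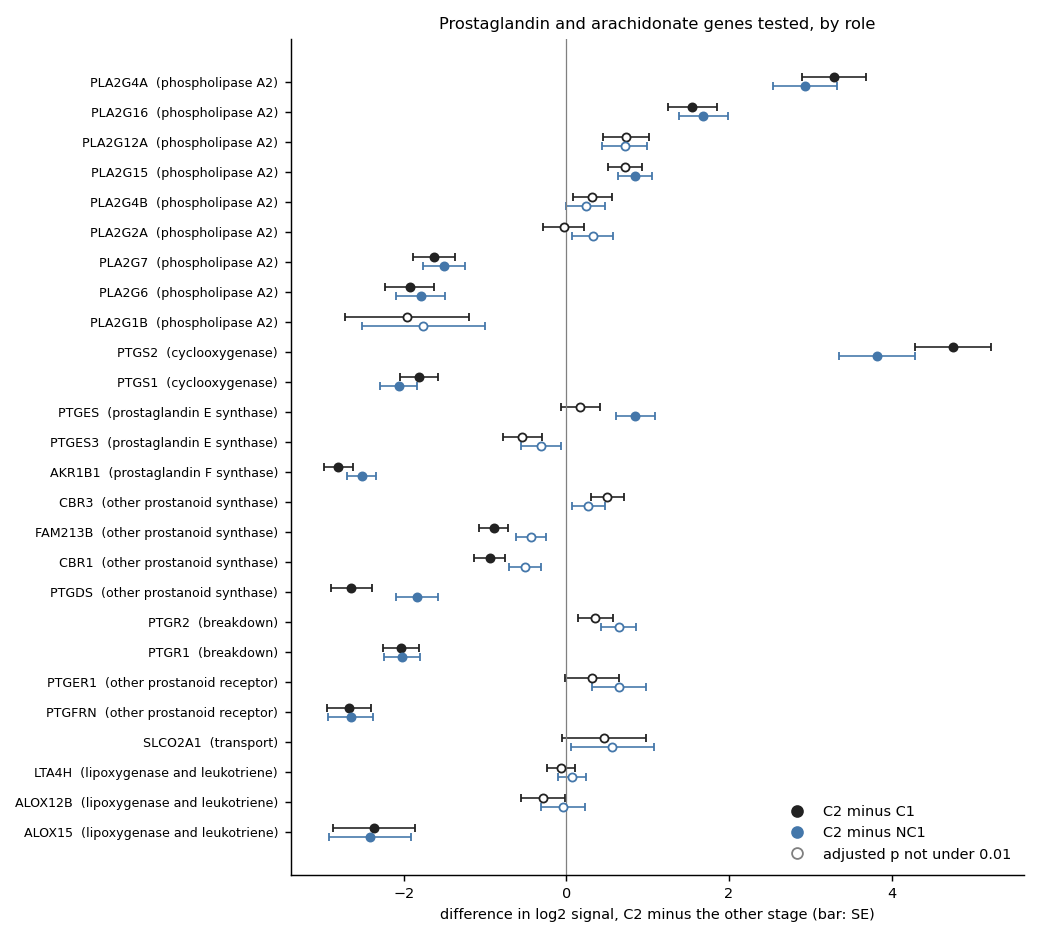
Difference in log2 signal between C2 and C1 (black) and between C2 and NC1 (blue) for the tested genes of prostaglandin and arachidonate metabolism, grouped by role, with SE bars. Filled points had an adjusted p under 0.01. PTGS2, PLA2G4A and PLA2G16 lie to the right of 0 in both comparisons, and PTGS1, AKR1B1, PTGDS, PTGR1, PTGFRN, PLA2G6, PLA2G7 and ALOX15 to the left.

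Similar signals were searched only among valid probes named by RefSeq accession or NCBI gene number, without LOC names. The named probes that followed PTGS2 most closely over the 17 arrays were those of PDK3, NXPE3 and AP1S2 (Pearson r of 0.949, 0.948 and 0.946). For AKR1B1 they were those of HDAC6, EPO and ERAS (0.987, 0.981 and 0.981). PTGER2 and HPGD were not well above background on most arrays. For PTGER2 the closest were BRWD3, CORO2A and HABP4 (0.876, 0.875 and 0.869), and for HPGD they were BNIPL, MUC20 and ALDH1A1 (0.733, 0.698 and 0.679). For PTGFR, a gene added to this comparison after its values were seen, they were RTN4RL2, PCBP3 and PAX8 (0.945, 0.941 and 0.940). Points of the same stage share their treatment, so a high r over all arrays can come from the step to C2 alone.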

How the data were processed

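Cy3-labelled RNA of 17 cow cumulus samples was hybridised to 17 Agilent 1-colour arrays. The authors deposited linear intensity values per spot, written by Agilent Feature Extraction 10.5.1.1 (per the submitters' processing notes) after background subtraction, and a table of log2 values scaled by the median of each array. No genome build is named, so no coordinates are given. Here, log2 of the processed signal was averaged over the unflagged spots of a probe, and the array median over non-control probes was subtracted. For 99% of values this differed from the deposited log2 table by at most 1.9e-06, apart from a constant per array. A probe was present where at least 50% of its spots were well above background, uniform and not saturated. Where a gene had several valid probes, the brightest was counted.

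Stages were compared with lmFit and eBayes of limma 3.58.1 in R 4.3.3 in 1 fit over 17 arrays, with Benjamini-Hochberg adjustment over all probes tested and a threshold of 0.01. Single genes were also compared by 2-sided exact permutation tests. Arrays came from 6 slides, scanned on 2 days. Blocks for these, for the replicate number, other scalings, filters, a normexp offset of 50, array weights, an unmoderated test and each array left out were tried. Each stage had its own animals, so equal replicate numbers mark no pair. Precision is limited by the number of arrays. Gene names come from the array, from RefSeq accessions and from NCBI gene numbers (assembly ARS-UCD2.0), which named 13511 probes. Every valid gene of the prostaglandin and lipoxygenase lists that passed the threshold was named, as well as all members and prostanoid receptors. Markers were named only where their list is given. For 4 genes, and for PTGFR added later, the 3 most similar named probes were given. The genes and lists were chosen with earlier results of these data known. Tests of single genes used scipy 1.17.1 in Python 3.11.15.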

Additional observations from a re-analysis of the deposited data

Results flagged for a closer look

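PTGES3 on the NC1 arrays had 1 array far from the others, replicate 3 at 7.59, with the nearest array at 7.13. No other set stood out among 16 sets of 5 or 6 arrays of the member probes in which all arrays were well above background, and chance alone gives about 5% of such sets. Without this array the PTGES3 differences were -0.54 between C2 and C1, -0.22 between C2 and NC1 and 0.32 between C1 and NC1, none past the threshold.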

How the results depend on the processing

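The count of members called stayed within 1.5 times of its value under the alternatives tried for the 5 valid genes, and changed with the filter: without a filter, 9 genes were tested, of which 6 differed among the stages and 6 between C2 and C1, and 11 of 27 single comparisons were called, against 3, 3 and 7 of 15 with it. Of all 21475 probes, 4735 differed among the stages without a filter, and 2406 were higher and 2140 lower at C2 than at C1. Where 1 array was left out, the count of members was 3 to 4 over the stages, 3 between C2 and C1, 3 to 4 between C2 and NC1 and 0 between C1 and NC1, 6 to 7 of the single comparisons were called, and the rest of the pathway gave 9 to 10 between C2 and C1 and 7 to 9 between C2 and NC1. The replicate block gave 3 members between C2 and C1, 3 between C2 and NC1 (PTGES was lost, adjusted p = 0.0267) and 6 single comparisons. Numbers do not pair the samples: the correlation of deviations of same-numbered arrays lay between -0.317 and 0.252. Over 915 single member values under alternatives, 864 stayed on the same side of the threshold, 44 lost the call and 7 gained it. No called value turned its sign, and 8 of 517 uncalled values did. The alternative without C2 replicates 1 and 5 was added after seeing the data. Scaling by the 75th percentile moved the median difference between C2 and C1 over all valid probes from 0.02 to -0.11, and with normexp 2468 probes were higher and 1200 lower at C2 than at NC1, against 2152 and 1741. The causes were not tested. Dim signals limit PTGER2, HPGD and PTGFR most: where a probe is not well above background, its value is only an upper bound.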
